A study of Mus musculus with 2 samples.

Results

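Retinoic acid is made from vitamin A and acts as a diffusible signal in embryonic tissues, including the urogenital tract. Retinol travels on RBP4, is oxidised to retinaldehyde and then, by enzymes of the ALDH1A family, to retinoic acid. CRABP proteins bind retinoic acid inside the cell, the nuclear receptors RARA, RARB and RARG bind it together with RXR partners and switch on target genes, and CYP26 enzymes degrade it. In the ureteric wall ALDH1A2 is known as a product of the fibrocytes of the lamina propria, the connective tissue layer under the urothelium.

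The genes described here are 9 members of this pathway: the retinol carrier Rbp4, the synthesising enzymes Aldh1a1, Aldh1a2 and Aldh1a3, the binding proteins Crabp1 and Crabp2, the receptor Rarb, and the degrading enzymes Cyp26a1 and Cyp26b1. They were taken by their gene name in the array files, where they had 11 probes among 39429 probes and 30011 genes. Where a gene had several probes, the one with the brightest signal over the 4 channels was used. Ureters of newborn NMRI mice (postnatal day 0), with no transgene or mutation, were explanted and cultured for 18 h in medium with 10% fetal calf serum. The medium held either 10 µM cyclopamine, which blocks SMO and thereby the SHH pathway, or solvent diluted 1 to 1000. The labels name the solvent as DMF, whereas the methods of the study name ethanol. Pooled RNA went onto 2 Agilent arrays with a dye per pool, each array with 1 control pool and 1 cyclopamine pool of the same sex. Replicate 1 held female pools, with the control in AlexaFluor555 and cyclopamine in AlexaFluor647, and replicate 2 held male pools with the dyes swapped. The sex of the pools, the dye orientation and the replicate therefore cannot be told apart. The name of the treated channel in the labels gives IWP-2, an inhibitor of WNT secretion, where the title, the treatment entry and the protocol give cyclopamine. The arrays were analysed as cyclopamine arrays.

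The targets of SHH signaling were lower in the cyclopamine pools. Gli1, a transcription factor of the pathway, went from 7770.5 to 2181.9 intensity units in the female pools and from 1235.5 to 289.69 in the male pools. Ptch1, which encodes the SHH receptor, went from 785.44 to 359.65 and from 206.65 to 73.705. Both were called by limma, a linear model for arrays fitted to all probes, with Benjamini-Hochberg adjusted p-values of 1.76e-08 and 0.000248. Signals were brighter on replicate 1, whose control channel had an upper quartile 5.32 times that of replicate 2. Signals are therefore set side by side only within an array, except for the summed fat cell markers. On replicate 1 the log2 ratio also followed the genomic length of the gene (Spearman's rho over 22468 probes 0.44, against 0.03 on replicate 2), and across genes the ratios of the 2 arrays had a Pearson r of 0.24. Of the cell types of the ureter, all 10 urothelial, 8 smooth muscle and 8 fibroblast markers were above background in every channel. The tubule and podocyte genes Umod, Slc12a1, Slc34a1 and Nphs1 and the liver genes Alb and Apoa1 were not, while 2 of the 8 kidney markers, the proximal tubule receptors Lrp2 and Cubn, were above background in every channel and higher on both arrays, neither being called (mean log2 ratios 0.75 and 0.33).

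Probes are 60 bases long and read only the stretch they match. For the carrier that changed most, the synthesising enzyme of the lamina propria and the 3 probes of the receptor, the last 30 bases are shown to tell which end of the transcript was measured, with the polyadenylation hexamer AATAAA or ATTAAA in capitals where it occurs. The annotation of the array places them on build mm9 without naming exons. The Rbp4 probe lies at chr19:38191120-38191179 on the minus strand, the Aldh1a2 probe at chr9:71143931-71143990 on the plus strand, and the Rarb probes on the minus strand at chr14:17263367-17263426, chr14:17264648-17264707 and chr14:17651424-17651483.
Rbp4: caaacttggtttATTAAAcatatagtcacc
Aldh1a2: agaatgtgaaaatgaagatttatgactttt
Rarb, first probe: ttccatggagtctcctggcaaagAATAAAt
Rarb, second probe: agttcaagtgggaatatagcagagcacagt
Rarb, far probe: ttctgtgtgattctggacctgtagtaatgt
A hexamer was found in the last 30 bases of 3 of the 11 probes, those of Rbp4 and Aldh1a3 and the first probe of Rarb. The first and the second Rarb probe start 1281 bases apart, whereas the far probe starts 386776 bases from the second and matches another transcript variant.

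Of the 9 genes, 8 had enough spots above background to be tested, and Cyp26a1 had not. limma called 1 of the 8 lower (Rbp4) and 0 higher, where it called 0.866% of the 19398 tested genes lower and 0.438% higher. At an unadjusted p under 0.05, 4 of the 8 were lower (Rbp4, Aldh1a2, Cyp26b1 and Crabp1) and 0 higher, where the share of all tested genes that were lower at this level was 4.81%. The intensity and fold limits of the study, applied here to both arrays (control signal over 100, and a fold of 1.5 or more with the same sign), carry no p-value. They passed 2 genes as lower (Rbp4 and Aldh1a2) of the 7 over the intensity limit and 0 as higher, where 0.63% and 0.212% of the 13661 genes over that limit passed. Rbp4 and Aldh1a2 are both in the study's own list of genes lowered by cyclopamine. That list was drawn from these arrays, so their passing was known beforehand and adds no separate evidence. The ratio was below 0 on both arrays for 6 of the 8 and above 0 on both for none, where 28.9% and 28.6% of all tested genes did so. Among the 6, Aldh1a3 had a ratio of -0.00065 on replicate 2, smaller in size than the SD of its spots (0.026). For the other 2, Aldh1a1 and Rarb, the signs were opposite and each ratio exceeded the SD of its spots, which held for 27% of all tested genes above background in every channel. Over the 8 genes the mean log2 ratios had a median of -0.46, and over all tested genes -0.01. In pooled tissue, fewer cells that express a gene and less RNA per cell cannot be told apart.

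**Figure D1:**
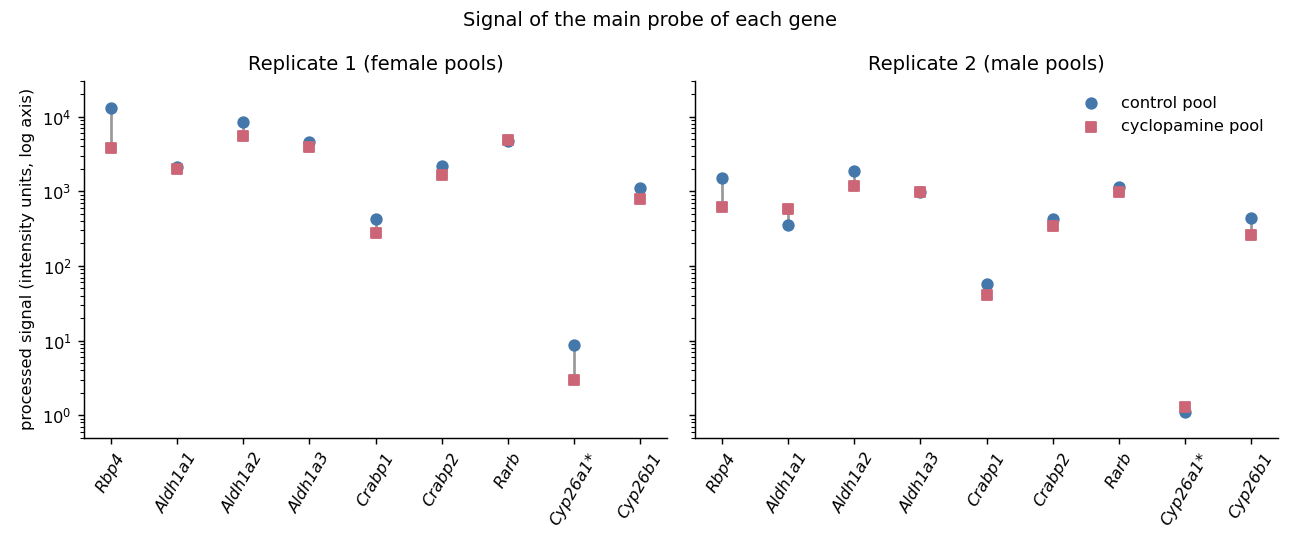
Processed signal in intensity units on a log axis for the main probe of each of the 9 genes, in the control pool (circles) and the cyclopamine pool (squares) of each array. An asterisk marks Cyp26a1, which was not well above background in any channel. Rbp4 has the widest gap between pools among the other genes on both arrays.

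Rbp4, the plasma carrier that brings retinol to cells and is made mainly by liver and fat, fell more than any other of the 9 genes. Its signal was 12880 in the control and 3837.1 in the cyclopamine pool of female ureters, and 1496.9 and 613.21 in the male pools. Cyclopamine was the lower pool on both arrays, by 3.36-fold and 2.44-fold. The mean log2 ratio was -1.52 ± 0.32 (SD, n = 2 arrays; limma 95% interval -1.97 to -1.06, adjusted p = 1.29e-05). The spots of the probe within an array differed far less than the arrays did, their SD being 0.02 in the female and 0.0059 in the male comparison. The call was kept in 11 of the 13 alternative settings that change the fit, with mean log2 ratios from -1.52 to -1.42. It was lost with the values of the authors' series table (adjusted p = 0.511) and with the 4 channels fitted as separate samples (adjusted p = 0.992), settings in which limma called no gene at all.

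The 3 RALDH enzymes, which make retinoic acid from retinaldehyde, differed among themselves. Aldh1a2 was lower in both cyclopamine pools. Its signal was 8415.5 in the control and 5485.6 in the cyclopamine pool of female ureters, and 1881.4 and 1195.4 in the male pools. The folds of 1.53 and 1.57 were just past the fold limit, and the log2 ratios of -0.62 and -0.65 lay closer together than those of the other 7 genes tested, with a mean of -0.64 ± 0.03 (SD, n = 2 arrays). limma did not call it (95% interval -1.09 to -0.18, adjusted p = 0.219), with a standard error of 0.23 that rests mostly on the spread of all probes. With the trend on gene length removed from each array, the value was -0.75 and the adjusted p 0.0188, the lowest of 13 alternative fits, whose highest was 0.992. Aldh1a1 went from 2108.8 to 1992.9 in the female pools and from 354.5 to 575.04 in the male pools. The arrays pointed in opposite directions, with log2 ratios of -0.08 and 0.70 (mean 0.31 ± 0.55, SD, n = 2 arrays; limma adjusted p = 0.715). Aldh1a3 went from 4595.7 to 3919 in the female pools and from 971.09 to 970.65 in the male pools. The log2 ratio was -0.23 on replicate 1 and -0.00065 on replicate 2 (mean -0.12 ± 0.16, SD, n = 2 arrays; limma 95% interval -0.57 to 0.34, adjusted p = 0.908).

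**Figure D2:**
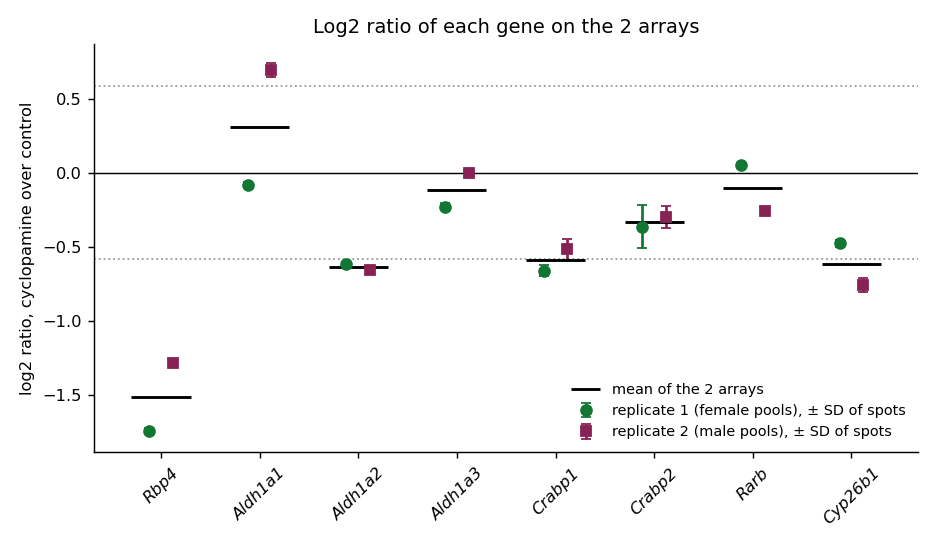
Log2 ratio of cyclopamine over control for the 8 tested genes on replicate 1 (circles) and replicate 2 (squares), with the SD of the spots of the probe as error bars, the mean of both arrays as a line and the 1.5-fold limit dotted. Rbp4 lies at -1.75 and -1.29, Aldh1a2 at -0.62 and -0.65, and the arrays differ in sign for Aldh1a1 and Rarb.

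The binding proteins that hold retinoic acid in the cell, Crabp1 and Crabp2, were lower in the cyclopamine pools of both arrays, and neither was called. Crabp1 went from 431.32 to 272.72 in the female pools (3 spots, since 1 had an outlier flag) and from 58.02 to 40.571 in the male pools. The log2 ratios were -0.66 and -0.52 (mean -0.59 ± 0.10, SD, n = 2 arrays; limma 95% interval -1.04 to -0.14, adjusted p = 0.291). Its control signal on replicate 2 was under the intensity limit of 100, so the limits of the study were not applied to it. Crabp2, which hands retinoic acid to the nuclear receptors, went from 2161.4 to 1678.7 and from 421.62 to 343.2. Its log2 ratios of -0.36 and -0.30 averaged -0.33 ± 0.05 (SD, n = 2 arrays; limma adjusted p = 0.681), and its spots were the most variable of the 8 genes, with an SD of 0.15 on replicate 1.

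The CYP26 enzymes, which hydroxylate retinoic acid for removal, could be compared for Cyp26b1 only. Its signal was 1103.3 in the control and 793.13 in the cyclopamine pool of female ureters, and 444.9 and 263.25 in the male pools. Cyclopamine was lower on both arrays, by 1.39-fold and 1.69-fold, so that replicate 1 missed the fold limit. The mean log2 ratio was -0.62 ± 0.20 (SD, n = 2 arrays; limma 95% interval -1.07 to -0.16, adjusted p = 0.247). For Cyp26a1 the signals were 8.6988 and 2.9976 on replicate 1 and 1.0973 and 1.2937 on replicate 2, not well above background in any channel, and no fold is given. Its probe can show no difference at this signal.

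Rarb, the receptor whose own gene is a classical target of retinoic acid, went from 4666.2 to 4851.2 in the female pools and from 1151.6 to 965.46 in the male pools by its first probe. The second probe went from 1103.8 to 1212.7 and from 225.53 to 195.43. Both probes thus pointed up on replicate 1 (log2 ratios of 0.06 and 0.14) and down on replicate 2 (-0.25 and -0.21). The mean of the first probe was -0.10 ± 0.22 (SD, n = 2 arrays; limma 95% interval -0.55 to 0.36, adjusted p = 0.926). The far probe was not well above background on either array.

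**Figure D3:**
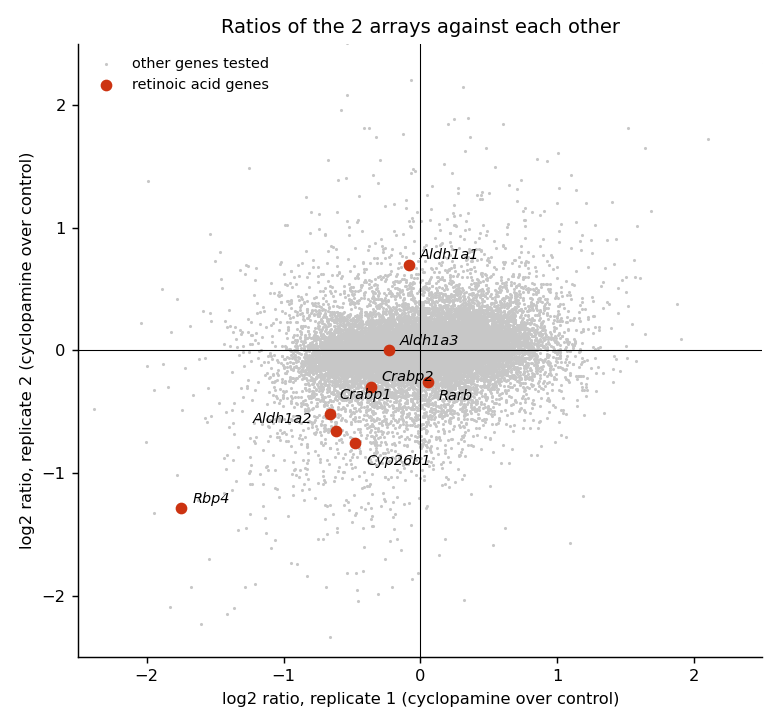
Log2 ratio of cyclopamine over control on replicate 1 (x axis) against replicate 2 (y axis) for the 19398 tested genes (grey) and the 8 tested retinoic acid genes (red); 14 genes lie outside the axes. Rbp4, Aldh1a2, Cyp26b1, Crabp1 and Crabp2 lie at the lower left, where both ratios are below 0, and Aldh1a3 lies almost on the horizontal axis.

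Retinoic acid receptors bind repeats of a 6-base half-site spaced by 5 bases (DR5) or 2 bases (DR2), and GLI factors of the SHH pathway bind GACCACCCA. These were searched on both strands of the RefSeq promoter windows (GRCm38.p6, 250 bases before to 50 after each start), of which 9 belonged to 7 of the genes. A DR5 was found in the windows of Rarb and Cyp26a1, and in 32 of all 32851 windows (0.0974%). The matches are shown with the repeat in capitals, on the strand of the gene, because both genes are known for a response element at this place. The Rarb stretch is chr14:16575506-16575535 on the minus strand and begins its repeat 53 bases before the start site. The Cyp26a1 stretch is chr19:37697770-37697799 on the plus strand, with the repeat on the opposite strand.
Rarb promoter: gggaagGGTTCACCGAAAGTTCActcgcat
Cyp26a1 promoter: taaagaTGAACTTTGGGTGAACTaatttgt
A DR2 (0.268% of all windows) and the GLI site (0.253%) were in no window of the 7 genes, among them Rbp4 and Aldh1a2, which says only that these letters are not in these windows. Of the 2 genes with a DR5, Rarb had ratios of opposite sign on the 2 arrays and Cyp26a1 was not measurable.

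The wider pathway was read from 5 further lists of 81 genes on the array, of which 65 were tested. limma called 3 of them lower and 0 higher (0.866% and 0.438% of all tested genes). The limits of the study passed 2 as lower (Ttr and Rbp7) and 1 as higher (Tnfaip2), where the shares over all genes were 0.63% and 0.212%. Ttr is in the study's own list of genes lowered by cyclopamine, drawn from these arrays, so its passing was known beforehand. Of the genes for retinol transport and storage, 2 of 8 tested were called lower, Ttr and Rbp7, and 0 higher. Ttr encodes transthyretin, the plasma partner that RBP4 binds. Its signal went from 1942.1 to 876.83 in the female pools and from 146.08 to 68.785 in the male pools. The folds of 2.21 and 2.12 lay close together (mean log2 ratio -1.12 ± 0.04, SD, n = 2 arrays; limma adjusted p = 0.00233). Rbp7, an intracellular retinol-binding protein of fat and endothelium, went from 2530.5 to 984.45 and from 211.19 to 131.75. It was lower by 2.57-fold in the female and 1.603-fold in the male pools (mean log2 ratio -1.02 ± 0.48, SD, n = 2 arrays; limma adjusted p = 0.00872). The median of the list was -0.16. For Ttr the call was kept in 11 and for Rbp7 in 10 of the 13 alternative fits. Both lost it where Rbp4 did, and Rbp7 also with a normexp background correction at an offset of 50 (adjusted p = 0.0607).

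The fat cell markers moved with Rbp4, Ttr and Rbp7. All 5 tested adipocyte markers of 7 on the array were lower on both arrays, where 28.9% of all tested genes were. The median of their mean log2 ratios was -0.83. Their summed signal, over all 7, went from 7147.6 to 3955.1 in the female pools and from 330.51 to 183.84 in the male pools. It was lower by 1.81-fold and 1.80-fold in the cyclopamine pools. Between arrays, the summed signal of the control pools was 21.6 times as high on replicate 1, against 5.32 times for the upper quartile. The cause of this difference was not tested. limma called 2 of the 5 lower, where the share of all tested genes was 0.866%. These were Cfd and Cidec, the latter named after its value was seen. The limits of the study passed Adipoq and Cfd as lower, where 0.63% of all genes over the intensity limit passed. Lep was not above background in any channel. The sum is mostly signal of Cfd and Adipoq. Single tested markers were lower by 1.37-fold (Cidec) to 1.88-fold (Cfd) on replicate 1, and by 1.13-fold (Retn) to 4.12-fold (Cidec, not well above background in every channel) on replicate 2. Rbp4 was lower by 3.36-fold and 2.44-fold, and Rbp7 on replicate 2 by less than the sum. The 5 endothelial markers, set beside Rbp7, had 0 called, with medians of 0.65 on replicate 1 and -0.17 on replicate 2. The part of fat cells in the result for Rbp4, Ttr and Rbp7 was not tested. Of 5 liver markers only Afp could be tested, with a mean log2 ratio of -0.51 (limma adjusted p = 0.448).

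The list for retinaldehyde formation held enzymes that act between retinol and retinaldehyde, in either direction. It showed no called gene among 17 tested (median 0.07), and the median does not describe the oxidation of retinol alone. Adh7, an alcohol dehydrogenase that oxidises retinol, had the largest value. It went from 1251.4 to 1744.2 in the female pools and from 243.45 to 468.43 in the male pools (mean log2 ratio 0.71 ± 0.33, SD, n = 2 arrays; limma adjusted p = 0.135). Rdh5, a retinol dehydrogenase, had log2 ratios of -0.73 and -0.10 (limma adjusted p = 0.601). Urothelial markers, beside Adh7 as an epithelial enzyme, had 0 of 10 called and a median of 0.16. On both arrays, 7 of the 10 were higher and 0 lower, where 28.6% and 28.9% of all tested genes were. The part of urothelial cells in the ratio of Adh7 was not tested.

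Of the 16 receptors and co-regulators none was called. Their median was 0.42 on replicate 1, the array on which ratios followed gene length, and -0.01 on replicate 2. The median of the mean ratios was 0.21, and 0.15 with the gene length trend removed. The largest mean log2 ratios were those of the co-repressor Nrip1 (0.46, from 0.83 and 0.09) and the acetyltransferase Kat2b (0.42, from 0.51 and 0.34). Their limma adjusted p-values were 0.537 and 0.579. On replicate 1 alone other genes of the list had larger ratios. In the list of other retinoic acid hydroxylases only Cyp2s1 was tested, with a mean log2 ratio of 0.01, and Cyp26c1 was not above background.

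Of 29 genes known to respond to retinoic acid, 23 were tested. limma called 1 lower (Ankrd1) and 0 higher, and the median was -0.07, near that of all tested genes. Ankrd1, a nuclear ankyrin repeat protein of muscle, went from 1539.4 to 427.78 in the female pools and from 182.47 to 148.5 in the male pools. It was lower by 3.60-fold on replicate 1 and 1.23-fold on replicate 2, so the call (limma adjusted p = 0.0119) came with an SD of 1.10 between arrays and missed the fold limit on replicate 2. The call was kept in 9 of the 13 alternative fits, and was lost with a robust prior (adjusted p = 0.183), a normexp offset of 50 (0.181), the series table (0.556) and the 4 channels as samples (0.992). Tnfaip2, first found as a gene induced by tumour necrosis factor, was the only gene of these lists past the limits of the study as higher. Its signal went from 8386.7 to 14270 and from 1997.1 to 3016.3 (mean log2 ratio 0.68 ± 0.12, SD, n = 2 arrays; limma adjusted p = 0.164). With the gene length trend removed the value was 0.74 and the adjusted p 0.022. On both arrays, 9 of the 23 genes were lower and 4 higher, where 28.9% and 28.6% of all tested genes were.

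**Figure D4:**
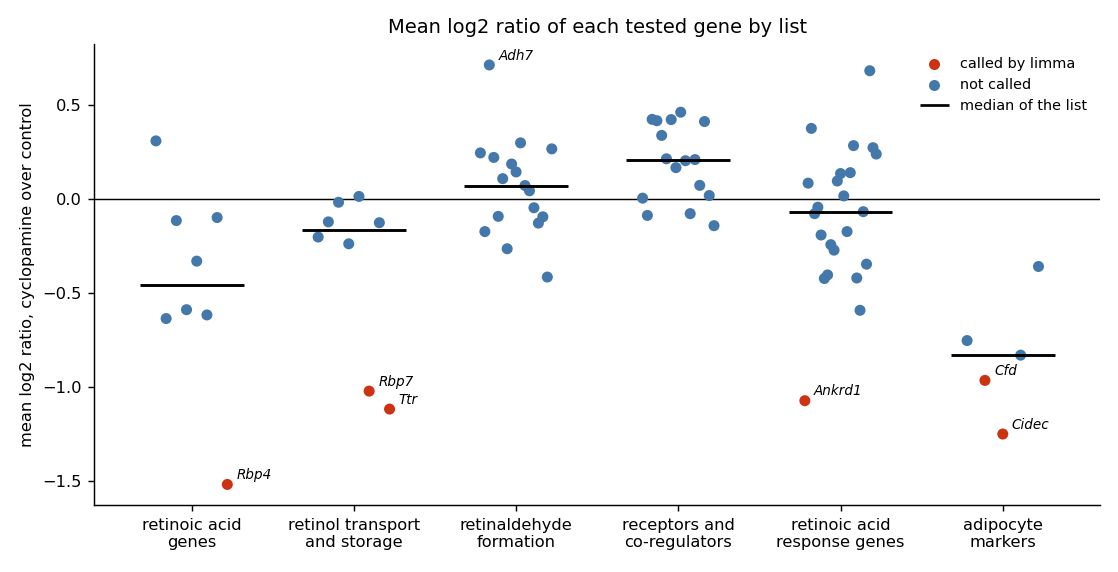
Mean log2 ratio of cyclopamine over control (2 arrays) of each tested gene in the retinoic acid set, 4 further pathway lists and the adipocyte markers, with genes called by limma in red, others in blue and the median of each list as a line. Rbp4, Ttr and Rbp7 lie below -1 and the adipocyte markers have a median of -0.83, while the lists for retinaldehyde formation and receptors have medians above 0.

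Aldh1a2 and other fibroblast genes could be set side by side. Of the 8 fibroblast markers, limma called 1 lower (Fmod), where the share of all tested genes was 0.866%. The limits of the study passed Fmod and Thy1 as lower, where 0.63% of all genes over the intensity limit passed. Both are in the study's own list of genes lowered by cyclopamine, drawn from these arrays, so their passing was known beforehand. The other fibroblast markers were not called and had positive mean log2 ratios. The fibroblast list had medians of 0.43 (replicate 1) and -0.34 (replicate 2). Its highest mean was that of Pdgfra (log2 ratios of 1.27 and 0.01, limma adjusted p = 0.266). Of the 8 smooth muscle markers 1 was called lower, Actg2, which also passed the limits of the study, beside the same shares. The medians of this list were -0.03 on replicate 1 and -0.38 on replicate 2. The part of a change in cell numbers in the ratio of Aldh1a2 was not tested.

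Genes with the most similar pair of ratios were sought by Euclidean distance over the 2 arrays among 13660 genes. For Aldh1a2 they were Hspb6 (-0.61 and -0.63, distance 0.02), Tram1l1 (distance 0.04) and Ptger1 (distance 0.04). For Rbp4 they were Ripply1 (-1.95 and -1.33, distance 0.21), Ccl11 (distance 0.33) and Itih3 (distance 0.45). A pair of arrays allows many genes to lie close, and the distances carry no test.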

How the data were processed

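RNA of pooled ureters was labelled with 2 dyes and read on 2 dye-swapped Agilent arrays. The deposited intensity values came from Agilent Feature Extraction, version 12.2.0.7 per the file headers and 10.7.3.1 per the submitters' processing notes. The processed signal had, per the file headers, its background subtracted and its dyes balanced within each array, and the authors' log10 ratio gives red over green. The authors' series table holds a score, a signed fold rounded to 1 decimal, whose values were used as an alternative. The flags for background, outliers and saturation are other deposited columns. Control spots and outlier spots (2.89% and 3.15%) were left out, no spot was saturated, and up to 4 spots per probe were averaged on the log2 scale. Tested were probes for which a share of 0.5 or more of the spots cleared the background flag in one treatment group on both arrays. limma 3.58.1 in R 4.3.3 fitted 25975 probes, with the dye swap turned by sign, no intercept and 1 residual degree of freedom, so that its standard errors come mainly from all probes. Intervals cover 95%. The pools of a replicate share its sex and number, and the ratio within an array is the paired comparison. Nothing in the labels says whether replicates were separate litters, so p-values measure only the spread between these arrays, and their number limits the precision. Gene names came from RefSeq by accession for 28328 probes. The fit was tested on simulated data. The genes, lists and tests were chosen with earlier results of these data known.

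Named are the 9 genes, Gli1 and Ptch1, in each pathway list every gene called or past the limits of the study and the 2 with the largest ratios among those above background in all 4 channels, the 3 genes nearest to Aldh1a2 and to Rbp4, and markers that are absent or past those limits. Afp was named besides, as the one liver marker tested, and Cyp26c1 as the gene of its list not above background. The markers Lrp2, Cubn, Pdgfra, Cidec and Retn also fall outside this rule and were named for their values.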

Additional observations from a re-analysis of the deposited data

Results flagged for a closer look

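For 2 of the 8 tested genes the female and the male pools differed from their controls in opposite directions, each by more than the SD of the spots, as did 27% of all tested genes above background in every channel. The SD of the spots covers the array only, not the spread between pools. The log2 ratio of Aldh1a1 was -0.08 in the female and 0.70 in the male pools, a difference of -0.78 (female minus male). The log2 ratio of Rarb was 0.06 in the female and -0.25 in the male pools, a difference of 0.31, and its second probe gave the same signs. With 1 array of each sex these differences were not tested, and sex, dye orientation and replicate cannot be told apart.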

How the results depend on the processing

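Of 104 values of the 8 tested genes over the 13 alternatives that change the fit, 101 stayed on the same side of the limit, none changed sign, 2 lost the call (Rbp4) and 1 gained it (Aldh1a2). The number of genes called lower was 0 rather than 1 with the authors' series table and also 0 in the fit of 4 channels without a replicate block, and 2 with the gene length trend removed (Rbp4 and Aldh1a2). The number past the limits of the study as lower was 1 at a fold of 2 and 3 by the mean ratio or on either single array, and as higher ran from 0 to 1 with 1 array left out (Aldh1a1, on replicate 2 alone). The number lower on both arrays was 5 rather than 6 with either normexp offset, the series table and medians of spots, and 7 with gene length removed. The median over the set was -0.41 and -0.44 with normexp offsets of 50 and 10, -0.47 with further loess, -0.59 with no filter on dim probes, -0.47 with medians of spots and -0.34 with gene length removed, and -0.42 to -0.41 on single arrays. The median for transport and storage was -0.13 with either normexp offset, -0.20 with the series table, -0.12 with no filter and -0.23 with gene length removed, and -0.23 to -0.21 on single arrays. For retinaldehyde formation it was 0.0085 with no filter and 0.047 with gene length removed, and 0.047 to 0.078 on single arrays. For other hydroxylases it was 0.055 with gene length removed, and for response genes -0.084 to 0.0066 on single arrays. Cyp2s1 turned to -0.0024 with the normexp offset of 50 and -0.0017 with further loess. Over all genes limma called 168 lower and 85 higher, and 35 and 11 with the normexp offset of 50, 102 and 43 with the offset of 10, 239 and 184 with gene length removed. With the series table it called none, against 660 lower and 695 higher at an unadjusted p under 0.05, and with 4 channels none, against 244 and 194. The causes of these shifts were not tested. Cyp26a1, and Crabp1 in the male pools, are limited by signal over background.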
